A study of Mus musculus with 1024 samples.

Results

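Wnt modulators and receptors are represented here by 10 of the 24422 genes counted in single cells of the mouse aorta, namely the secreted frizzled-related genes Frzb, Sfrp1, Sfrp2 and Sfrp4, the Dickkopf genes Dkk2 and Dkk3, the Frizzled receptor genes Fzd4 and Fzd6 and the co-receptor genes Lrp5 and Lrp6. They were picked by name, with their levels per cell group in these wells already known, and Frzb in particular because it marked a large group of endothelial cells. Their levels by sorted population and by cluster are therefore a description, in which fitted differences between gates are given with their standard errors and no p-value. The study asked what the loss of Amotl2, a junction-associated scaffold protein of the angiomotin family, does to aortic endothelial cells, and sequenced cells from 6 wild-type (WT) and 6 knockout (KO) mice aged 3 months, processed as 2 cell preparations. Cells were sorted into wells by surface Cd31 and Cd45, either as Cd31+Cd45- (labelled Endothelial) or as Cd31-Cd45- (labelled DoubleNegative, a control sort), and 784 of 1024 wells passed a minimum of 20000 gene counts and 500 detected genes. Of these, 676 were Endothelial and 108 DoubleNegative.

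All samples carry the strain label Amotl2flow/flow / Cdh5-RREert /ROSA26-EYFP, which the study's methods describe as loxP-flanked Amotl2 on a C57BL/6 background crossed to Cdh5(PAC)CreERT2 and a ROSA26-EYFP reporter. Deletion was induced with tamoxifen in adult animals, and the Cre driver is one used for endothelium. The strain label is the same for WT and KO. Aortas were digested from the luminal side and depleted of Cd45+ cells with magnetic beads before the sort. The labels number the sort of a cell, called its preparation here, but do not name its mouse. The counts were therefore summed over the wells of each preparation, genotype and gate. This gave 8 sums, with 2 preparations per group, and p-values measure only the spread between these sums. In preparation 1 WT and KO cells were on separate plates, so the genotype cannot be told apart from the plate in it, whereas in preparation 2 both were on 1 plate.

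Wnt proteins are secreted signals that bind a Frizzled receptor together with Lrp5 or Lrp6, which stabilises beta-catenin and switches on target genes. Secreted frizzled-related proteins carry a Frizzled-like domain that can bind Wnts outside the cell, while Dickkopf proteins such as Dkk2 bind Lrp5 and Lrp6 instead. In endothelium, Frizzled 4 is best known as the receptor for norrin, the product of Ndp, in the vessels of the retina and brain.

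Sequencing depth differed between sums. Endothelial sums held 50 to 302 wells and 8470943 to 94881185 counts, and DoubleNegative sums 12 to 42 wells and 926398 to 9435015 counts. The reporter and the targeted gene were read first. EYFP stood at 113 and 85.5 CPM (a gene's count relative to all gene counts of its sum, on the usual CPM scale) in the KO Endothelial sums of preparations 1 and 2, against 2.38 and 0.353 CPM in WT, and it had no count in any DoubleNegative sum. Amotl2 was at 51.9 and 45.7 CPM in KO against 59.9 and 94.0 in WT, so that KO was lower in both preparations. The study verified recombination by a deleted Amotl2 exon and by the reporter. Counts over the whole gene do not show the loss of an exon, so they do not measure the deletion. The endothelial markers Pecam1 and Cdh5 were present in every Endothelial sum, and the 10 endothelial markers summed to 15939 to 18893 CPM there, against 84.2 to 1329 CPM in DoubleNegative sums. In the DoubleNegative sums 7 smooth muscle markers summed to 21002 to 53518 CPM and 7 fibroblast markers to 5968 to 42122 CPM, so this gate was a mixture. Ptprc, which encodes Cd45, had 1 count in all 8 sums together. The WT Endothelial sum of preparation 1 stood apart through MHC class II genes, with Cd74 at 3066 CPM against 27.4 to 59.9 CPM in the other Endothelial sums. Separate estimates without WT preparation 1 are given only for Sfrp1, Sfrp2 and Sfrp4. The other main estimates and the pathway p-values include it.

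The members lie on 8 chromosomes of GRCm38 in the GENCODE M21 annotation. Frzb is at chr2:80411970-80447625 on the minus strand, Sfrp1 at chr8:23411502-23449632 on the plus strand, Sfrp2 at chr3:83766321-83774316 on the plus strand and Sfrp4 at chr13:19623104-19632994 on the plus strand. Dkk2 is at chr3:132085292-132180304 on the plus strand and Dkk3 at chr7:112116017-112159057 on the minus strand. Fzd4 is at chr7:89404355-89413134 and Fzd6 at chr15:39006034-39038188, both on the plus strand, and Lrp5 at chr19:3584828-3686564 and Lrp6 at chr6:134446476-134566965, both on the minus strand. The exons of Sfrp2 overlap those of the antisense gene Gm26771 and the exons of Fzd6 those of the non-coding gene Gm26704 on the opposite strand. Smart-seq2 libraries do not keep the strand, so reads in those overlaps cannot be told apart, and the values of Sfrp2 and Fzd6 are uncertain to that extent.

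RefSeq promoter windows on GRCm38.p6 were held for 4 of the 10 members, Frzb, Sfrp2, Dkk2 and Fzd4, and those of Sfrp2 and Dkk2 contained no annotated exon in the 250 bases before the start. They are shown because these secreted genes were highest in different clusters of cells described below. Sfrp2 was highest in the fibroblast-like cluster and Dkk2 in a small Cd31-positive cluster. Sfrp2 was not confined to fibroblast-like cells. It had a count in 22.9% of the wells of the largest endothelial-like cluster and in 47.6% of smooth muscle-like wells. Capitals mark TATAAA and GGGCGG on either strand.
Sfrp2, chr3:83766071-83766320, plus strand: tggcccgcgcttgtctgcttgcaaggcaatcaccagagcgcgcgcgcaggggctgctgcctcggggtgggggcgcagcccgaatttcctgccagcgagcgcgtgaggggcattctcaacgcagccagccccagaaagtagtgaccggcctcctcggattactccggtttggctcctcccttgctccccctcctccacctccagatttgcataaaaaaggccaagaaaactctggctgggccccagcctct
Dkk2, chr3:132085042-132085291, plus strand: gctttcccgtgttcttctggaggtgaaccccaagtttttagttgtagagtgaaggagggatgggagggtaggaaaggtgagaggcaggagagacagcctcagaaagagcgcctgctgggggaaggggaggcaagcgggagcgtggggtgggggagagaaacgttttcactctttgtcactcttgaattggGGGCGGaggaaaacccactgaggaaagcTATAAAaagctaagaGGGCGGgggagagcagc
The Dkk2 window held TATAAA 32 bases before the start and GGGCGG at 60 and 17 bases, counted to the first base of each word, whereas the Sfrp2 window held neither. Of 32851 promoter windows of the same length, 12.4% held TATAAA and 32.7% GGGCGG. None of the 4 windows held the word CTTTGAA, nor the word CTTTGAT, nor the word CTTTGTA, nor the word CTTTGTT. TCF/LEF factors bind such words, and 14.8% of all windows contained at least 1 of them. All words were searched on both strands. A word match is a description of the letters and not of binding.

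The 4 secreted frizzled-related genes split between the gates, with Frzb and Sfrp1 in Endothelial cells and Sfrp2 and Sfrp4 mainly in DoubleNegative cells. Sfrp1, a broad Wnt antagonist, was the most abundant member in Endothelial cells on any scale used. Its Endothelial sums stood at 961 and 1283 CPM in WT and at 1105 and 1226 CPM in KO for preparations 1 and 2, whereas its DoubleNegative sums were at 13.7 and 51.6 CPM in WT and 2.01 and 205 CPM in KO. No sums of the gates overlapped, and the edgeR estimate was 4.21 ± 1.09 (SE) on the log2 scale. For Sfrp1 it was 3.96 without WT preparation 1, and it ran from 3.80 to 7.05 as each preparation of a genotype was left out. The higher DoubleNegative values rested on single wells. One well gave 96.1% of the Sfrp1 counts of the WT sum of preparation 2 and 1 gave 97.9% of the KO sum of preparation 2. Keeping only DoubleNegative wells with a smooth muscle-like or fibroblast-like cluster left 2.11 CPM in that WT sum, because the 1 DoubleNegative well that clustered with endothelial cells dropped out.

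Frzb, also called Sfrp3 and first known from cartilage, showed the same preference at a lower level. Its Endothelial sums were 169 and 203 CPM in WT and 485 and 467 CPM in KO, and its DoubleNegative sums 21.7 and 14.2 CPM in WT and 13.6 and 0 CPM in KO. The KO DoubleNegative sum of preparation 2 had no Frzb count in 14 wells, and 0 of 14 leaves room for a share of at most 21.4%. The gates did not overlap, and the edgeR estimate was 4.48 ± 0.63 (SE) on the log2 scale. Without preparation 1 of KO, where the remaining KO DoubleNegative sum is at 0, the estimate depends on the prior count and is not given here.

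Sfrp2 ran the other way. Its DoubleNegative sums reached 1615 and 244 CPM in WT and 1572 and 141 CPM in KO, against 18.05 and 211 CPM in WT and 76.6 and 128 CPM in KO among Endothelial sums. The KO DoubleNegative value of preparation 2 lay below the WT Endothelial value of the same preparation, so the gates overlapped, and preparation 1 was high in DoubleNegative cells of both genotypes. The edgeR estimate was -3.15 ± 0.98 (SE) on the log2 scale. The make-up of the gate moved with it: 26 of 42 WT wells and 9 of 40 KO wells of preparation 1 were fibroblast-like against 1 of 12 and 1 of 14 in preparation 2. Within fibroblast-like DoubleNegative wells of preparation 1 the Sfrp2 level was 2510.3 CPM for WT and 6034 CPM for KO. These values came from 16 WT and 6 KO wells with a count. One well gave 30.8% of the Sfrp2 counts of the whole WT DoubleNegative sum of preparation 1 and 1 gave 40.1% of the KO sum. Within smooth muscle-like wells the level was 113 CPM for WT and 229 CPM for KO. The sum of a whole gate mixes the share of each cell type with its level per cell, and the part of each was not tested.

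Sfrp4 had the lowest level per length of all members in Endothelial cells and was detected in 50 of 676 Endothelial wells. Its Endothelial sums were 4.33 and 10.7 CPM in WT and 8.05 and 8.03 CPM in KO. The DoubleNegative sums were 629 and 0 CPM in WT and 366 and 139 CPM in KO, with no count in the 12 WT wells of preparation 2, a share of up to 25.0%. In the KO sum of preparation 2 all Sfrp4 counts came from 1 well. The estimate of -5.30 ± 1.301 (SE) on the log2 scale turned to 2.86 when preparation 1 of WT was left out, because the WT DoubleNegative cells were then represented by the sum at 0.

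**Figure D1:**
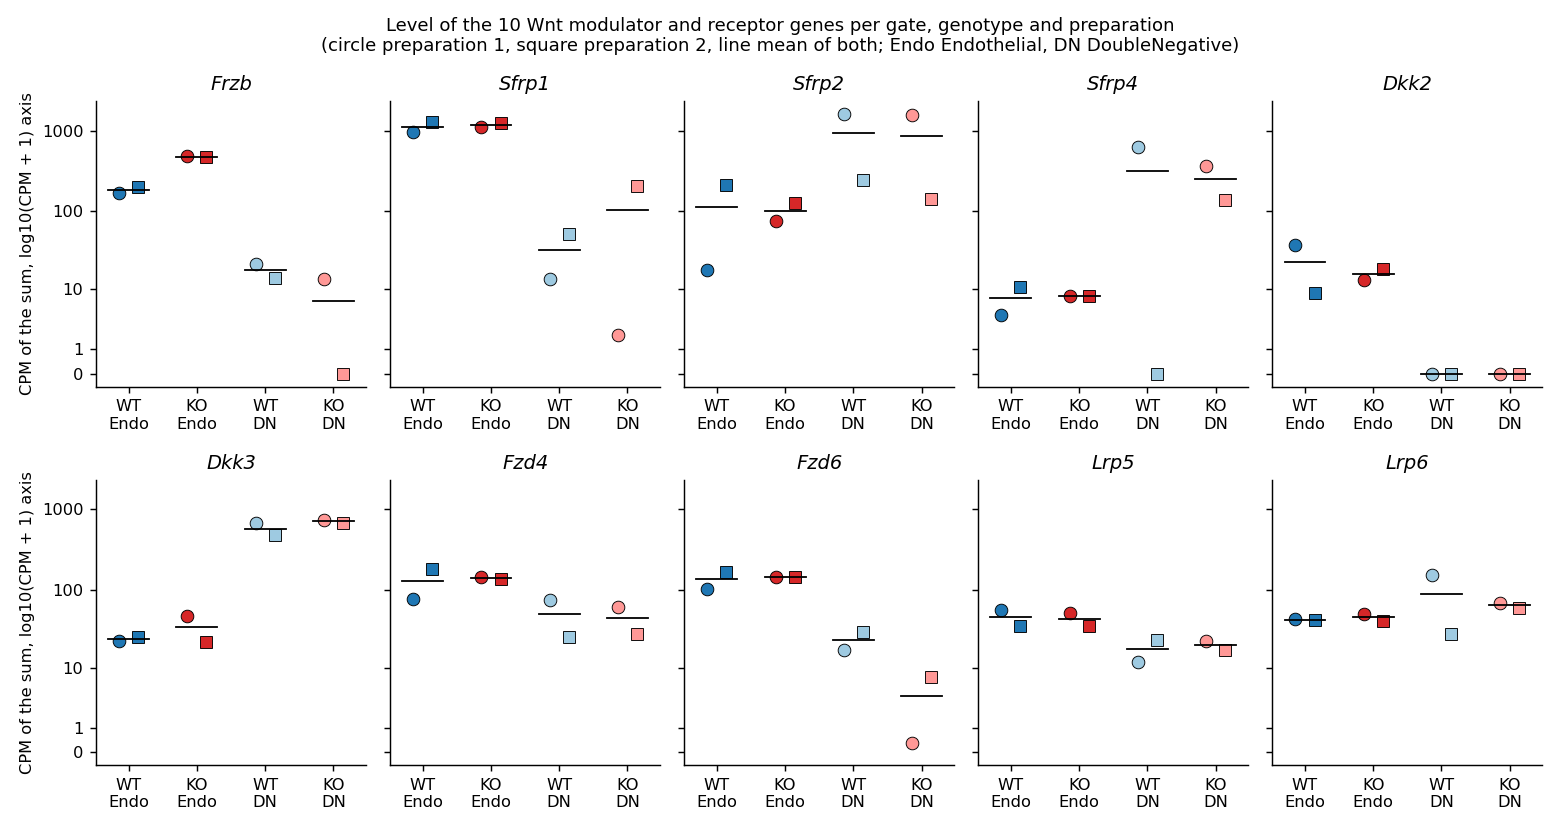
CPM of each member in the 8 sums on a log10(CPM + 1) axis, with WT and KO as groups within the Endothelial (Endo) and DoubleNegative (DN) gates, circles for preparation 1, squares for preparation 2 and a line at the mean of both. Frzb, Sfrp1, Dkk2 and Fzd6 are higher in Endo, Dkk3 is higher in DN, and Frzb is the member whose KO Endothelial sums (485 and 467 CPM) both lie above the WT sums (169 and 203 CPM).

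The Dickkopf genes were opposite in their distribution. Dkk3, a divergent Dickkopf member that is not an established Lrp5 or Lrp6 ligand, was high and even across DoubleNegative sums, at 677 and 485 CPM in WT and 750 and 688 CPM in KO. It was found in 85.7% to 100% of the DoubleNegative wells of each sum. Endothelial sums were at 22.5 and 25.6 CPM in WT and 47.2 and 22.4 CPM in KO, and the gates did not overlap, with an estimate of -4.60 ± 0.33 (SE) on the log2 scale. Of the 676 Endothelial wells, 14 clustered with smooth muscle-like and 2 with fibroblast-like cells. Leaving these out lowered the Endothelial values to 15.3 and 25.1 CPM in WT and 35.2 and 13.2 CPM in KO.

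Dkk2, whose protein blocks or modulates Wnt signalling through the co-receptors, was a rare Endothelial transcript. It had 37.2 and 8.91 CPM in WT and 13.2 and 18.8 CPM in KO Endothelial sums, from 30 wells in all. None of the 108 DoubleNegative wells held a Dkk2 count, so its share there was at most 2.78%, and all 4 of their sums were at 0. Against a floor of 3 counts per DoubleNegative sum, on average 1.76 CPM, the mean Endothelial level of 19.5 CPM was 11.1-fold higher. The floor treats reads as independent, but in preparation 2 a single well gave 83.2% of the WT and 76.1% of the KO Endothelial counts. The fold is therefore not a minimum over cells. By wells, 4.44% of Endothelial wells stood against at most 2.78% of DoubleNegative wells. Intervals and floors cover counting error only.

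Of the receptors and co-receptors, Fzd6 differed strongly between gates and the other 3 by less. Fzd6, a Frizzled known mainly from planar cell polarity, stood at 103 and 169 CPM in WT and 145 and 148 CPM in KO Endothelial sums. Its DoubleNegative sums were 17.2 and 29.4 CPM in WT and 0.318 and 7.56 CPM in KO, without overlap of the gates, and the estimate was 4.21 ± 0.76 (SE) on the log2 scale. Fzd4 was at 76.6 and 182 CPM in WT and 145 and 136 CPM in KO Endothelial sums, against 75.7 and 25.3 CPM in WT and 60.9 and 28.1 CPM in KO DoubleNegative sums. The lowest Endothelial and the highest DoubleNegative Fzd4 sums were almost equal, and the estimate was 1.37 ± 0.44 (SE).

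Lrp5 and Lrp6 leaned in opposite directions, each by little. Lrp5 was at 56.3 and 35.03 CPM in WT and 51.9 and 35.3 CPM in KO Endothelial sums, all above the 12.2 and 23.3 CPM of the WT and the 22.999 and 17.3 CPM of the KO DoubleNegative sums. Lrp6 was at 43.9 and 41.7 CPM in WT and 50.7 and 41.3 CPM in KO Endothelial sums, the narrowest range of any member relative to its level, while its DoubleNegative sums of 153, 28.3, 68.3 and 60.4 CPM overlapped them. The estimates were 1.14 ± 0.40 (SE) for Lrp5 and -0.91 ± 0.47 (SE) for Lrp6 on the log2 scale.

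Counting over the gates, 6 members had all 4 Endothelial sums above all 4 DoubleNegative sums, which 17.3% of the 12729 genes tested also had, and 1 member, Dkk3, had them all below, as did 8.98% of genes. In the edgeR quasi-likelihood fit over all genes, at an adjusted p of 0.05, 4 members were counted higher in Endothelial cells and 2 lower, beside 9.79% of all genes higher and 9.25% lower. With preparation or cell pool (genotype by preparation) as a block, 4 were counted higher and 1 lower, because Sfrp4 was no longer counted. Without WT preparation 1 neither Sfrp1 nor Sfrp4 was counted, and without WT preparation 2 Sfrp1 was not. Nothing is read from these counts, since the members were chosen with their levels per gate known. The median log2 difference of the 10 members was 1.25, beside 0.15 over all genes tested.

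Per kilobase of exon, the scale on which genes can be set beside each other, the members formed an order in Endothelial cells from Sfrp1 at 262 ± 32.6 CPM per kb (mean ± SD of 4 sums) to Sfrp4 at 1.86 ± 0.62. Frzb was second at 102 ± 52.0, and its highest sum of 150 stayed below the lowest Sfrp1 sum of 220. Sfrp2 followed at 50.3 ± 38.0, Fzd6 at 29.3 ± 5.70 and Fzd4 at 20.1 ± 6.51 CPM per kb. The ranges of these last neighbours overlapped, as did that of Sfrp2 with Frzb. Dkk3 at 8.76, Dkk2 at 5.27, Lrp5 at 4.58 and Lrp6 at 3.25 CPM per kb made up a low group in which each range overlapped the next. In DoubleNegative cells Sfrp2 led at 415 ± 376 CPM per kb, followed by Dkk3 at 193 ± 34.1 and Sfrp4 at 67.8 ± 65.9, and the remaining members had means of 15.6 or less. The ranges of Sfrp2 and Dkk3 overlapped there, as did those of Dkk3 and Sfrp4.

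**Figure D2:**
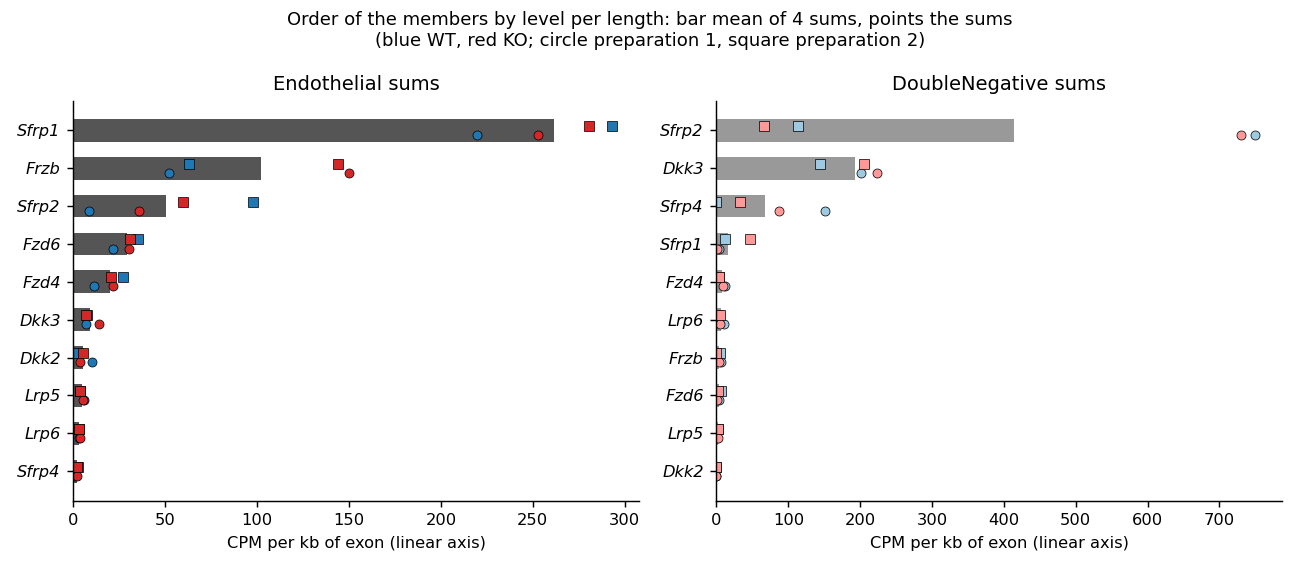
Members ordered by CPM per kb of exon on linear axes from 0, with bars at the mean of the 4 sums of a gate and points for the sums (blue WT, red KO, circle preparation 1, square preparation 2). Sfrp1 at 262 and Frzb at 102 CPM per kb lead in Endothelial sums, and Sfrp2 at 415 and Dkk3 at 193 in DoubleNegative sums.

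Within the Endothelial gate the members differed in how widely they were spread over cells. Sfrp1 had a count in 609 of 676 wells and a median of 920 CPM. Frzb was found in 406 wells with a median of 69.3 CPM, a 90th percentile of 982 CPM and a maximum of 4711 CPM, and the 68 wells with the highest values held 52.3% of the summed single-well CPM. For Sfrp1 that share was 26.9%. Sfrp2 was in 91 wells, and the 68 highest wells held 99.4% of its summed CPM, a share that follows largely from the few wells with a count. Among wells with a count the median was 223 CPM for Sfrp2, 343 CPM for Frzb and 1043 CPM for Sfrp1. Fzd6 (505 wells), Fzd4 (481 wells), Lrp5 (402 wells) and Lrp6 (309 wells) had medians of 74.4, 46.1, 15.2 and 0 CPM and maxima of 992, 1140.3, 516 and 804 CPM. Their 68 highest wells held 37.4%, 45.5%, 48.6% and 60.1% of the summed CPM. These shares were all above that of Sfrp1, and that of Lrp6 was also above that of Frzb.

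The share of wells with a count moves with depth. Frzb was detected in 46.4% (95% Wilson interval 40.1% to 52.8%) and 70.0% (56.2% to 80.9%) of WT and in 62.3% (56.7% to 67.5%) and 83.1% (74.0% to 89.5%) of KO Endothelial wells in preparations 1 and 2. With each well thinned to 20000 counts these shares became 40.9% and 56.0% in WT and 55.3% and 82.0% in KO. Sfrp1 was in 83.0% and 96.0% of WT and in 92.7% and 96.6% of KO Endothelial wells, and thinning left 80.0%, 96.0%, 90.4% and 96.6%. For Lrp5 the shares of 56.6% to 68.0% became 32.0% to 40.9% after thinning.

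Clustering on 2000 variable genes from which the members had been removed gave 7 clusters, 5 of them endothelial-like by the marker lists, 1 smooth muscle-like and 1 fibroblast-like. The members nonetheless differed between clusters, which is a description of the same cells and has no test. Cluster 0 (249 wells, led by G0s2, Aldh3a1 and Ackr4) had the highest Frzb, at a mean of 648 CPM and in 81.1% of wells, together with Sfrp1 at 1413 CPM and Sfrp2 at 162 CPM in 22.9% of wells. Cluster 1 (203 wells, led by Tbx1, P4ha3 and Nt5e) had Frzb at 148 CPM and Sfrp1 at 958 CPM. Cluster 2 (155 wells, led by Cd74 and other MHC class II genes, of which 154 wells were WT cells of preparation 1) had Frzb at 168 CPM and Sfrp1 at 1093 CPM.

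Both small endothelial-like clusters were low in the frizzled-related genes. Cluster 5 (33 wells, led by Htr2b, Ackr1 and Lrg1) had Frzb at 2.40 and Sfrp1 at 3.03 CPM. Cluster 6 (21 wells, led by Ssu2, Hapln1 and Tmem178) had Sfrp1 at 2.82 CPM and no Frzb count, which allows up to 14.3% of wells. Cluster 6 was where Dkk2 was found, at a mean of 350 CPM and in 66.7% of its wells. Of the 30 Endothelial wells with a Dkk2 count 14 were in cluster 6 and 11 in cluster 1, and none of the 30 also held Sfrp2. The Frizzled and co-receptor genes were present in all 5 endothelial-like clusters, with Fzd6 between 101 and 180.5 CPM and Fzd4 between 71.5 and 139 CPM.

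The smooth muscle-like and fibroblast-like classes, taken as whole clusters, separated as clearly. They were mostly DoubleNegative, but 14 of the 84 smooth muscle-like and 2 of the 39 fibroblast-like wells were from the Endothelial gate. Fibroblast-like wells (39) had Sfrp2 at 3364 CPM in 66.7% of wells, Sfrp4 at 1229 CPM in 84.6%, Dkk3 at 521 CPM, Lrp6 at 194 CPM in 92.3% and Fzd4 at 125 CPM. They held no Fzd6 count, which allows up to 7.69% of wells, and no Dkk2 count. Smooth muscle-like wells (84) had Dkk3 at 592 CPM in 95.2% of wells, Sfrp2 at 114 CPM in 47.6% and Sfrp4 at 1.68 CPM. Dkk3 was thus high in both classes, whereas fibroblast-like wells held 94.4% of the summed single-well Sfrp4 CPM of all clusters. Low Sfrp4 counts were also found in 4.76% of smooth muscle-like wells and in 5.16% to 9.85% of the wells of endothelial-like clusters 0, 1, 2 and 5. When clusters were drawn more finely, at a resolution of 0.8, a group of 59 wells led by Gdf6, Thbs1 and Sele and left unnamed by the marker rule split from cluster 0. It had Frzb at 1102 CPM in 98.3% of wells and Sfrp2 at 643 CPM in 64.4%, against 505 CPM and 13.2 CPM in the cluster of 191 wells that held most of the remainder.

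**Figure D3:**
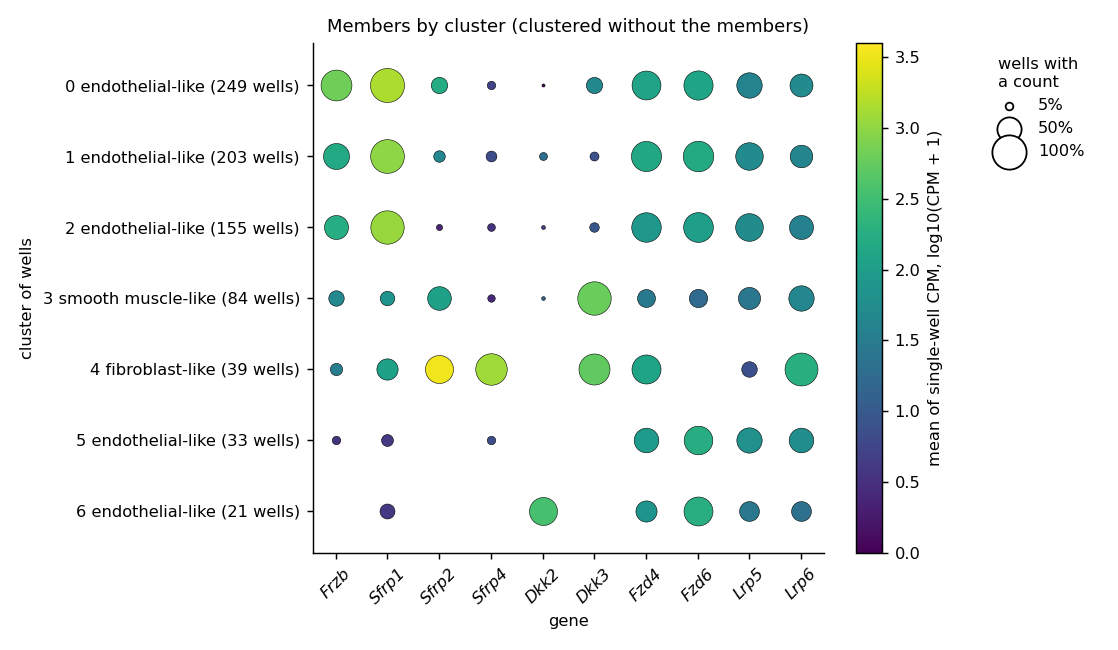
Mean single-well CPM (colour, log10(CPM + 1)) and share of wells with a count (dot area) for each member in each cluster, with no dot where no well had a count. Frzb is brightest in cluster 0 (648 CPM), Dkk2 in cluster 6 (350 CPM), Sfrp2 and Sfrp4 in the fibroblast-like cluster 4 (3364 and 1229 CPM) and Dkk3 in clusters 3 and 4.

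Over Endothelial wells Frzb, Sfrp1 and Sfrp2 were positively correlated. Spearman correlations were computed within each of the 4 Endothelial sums and averaged, over 50 to 302 wells per sum that share plate, depth and library preparation, and no p is given. Frzb and Sfrp1 had a mean correlation of 0.43, between 0.40 and 0.47 in the 4 sums. Frzb and Sfrp2 had 0.33, and Sfrp1 and Sfrp2 0.26. Of the wells with Frzb, 99.0% also held Sfrp1 and 20.2% held Sfrp2, against 76.7% and 3.33% of the wells without it. These shares are pooled over all Endothelial wells and not matched for depth. All other members but Dkk2 were also found more often in wells with Frzb, such as Fzd4 (77.1% against 62.2%) and Lrp5 (67.0% against 48.1%). Dkk2 was the exception, at -0.27 with Sfrp1 and -0.19 with Frzb, and it was negative with both in each of the 4 sums. Correlations of the receptors and co-receptors with each other lay between 0.04 and 0.08, too weak in such sparse counts to be called a relation.

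Among 7271 genes with a count in at least 20% of Endothelial wells, the 8 genes most like Frzb were Thbs1 (0.53), Bmp4 (0.50), Pam (0.47), Serpinb6b (0.45), Itgbl1 (0.45), Sfrp1 (0.43), Smoc1 (0.43) and Apoe (0.42). Thbs1 encodes the matrix glycoprotein thrombospondin 1 and Bmp4 a secreted growth factor. The genes least like Frzb were Cldn5 (-0.45), a tight junction gene, then Tcf4 (-0.38), Ptrf (-0.38) and Stmn2 (-0.34). The median over all genes was 0.05. With wells thinned to 20000 counts 7 of the top 8 genes were shared, and in wells of at least 100000 counts 3 of 8, while Thbs1 stayed first in both.

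The comparison of KO with WT within the Endothelial gate asked whether endothelial loss of Amotl2 moved these genes. Frzb was the member that stood out by size, and no member passed the test. Frzb was 2.88-fold higher in KO in preparation 1 and 2.30-fold higher in preparation 2, where both genotypes were on 1 plate. The 2 WT sums (186 ± 24.5 CPM, SD, n = 2) and the 2 KO sums (476 ± 12.9 CPM, SD, n = 2) did not overlap. Of the 10 members Frzb alone had both KO sums above both WT sums and none had both below, beside 14.9% of the 12702 genes tested for the first and 14.6% for the second.

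The edgeR estimate for Frzb was 1.36 ± 0.26 (SE) on the log2 scale, and its adjusted p was 0.766 by edgeR. In that fit 0% of all genes were called, and 468 genes, 3.68%, had an unadjusted p under 0.05. DESeq2 called 55 genes, Frzb among them with an adjusted p of 0.000249. Over the alternatives tried the Frzb estimate stayed between 1.21 and 1.58 and its adjusted p ran from 0.000249 to 1.00. Among fits with 2 sums per genotype the adjusted p was below 0.05 with DESeq2, without a filter on low counts (0.00116 by edgeR) and in thinned wells (0.0432 by edgeR). With preparation as a block in the edgeR fit the estimate was 1.37 ± 0.23 (SE), the adjusted p 0.130 and 1 gene was called. Frzb thus did not pass the main test, and its call depended on the method. It had been picked because it marked a group of endothelial cells, and cluster 0, where it was highest, held 201 KO and 48 WT wells. Its p-values are therefore not independent of that choice, and nothing is read from those that passed.

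Cluster membership moved with genotype, so Frzb is also given within clusters. Cluster 0 held 22 of 235 WT wells in preparation 1 and 25 of 50 in preparation 2, and 159 of 302 and 42 of 89 KO wells. Within cluster 0 the WT values of Frzb were 427 and 279.6 CPM and the KO values 759 and 867 CPM. Within cluster 1 the WT values were 51.4 and 76.4 CPM and the KO values 165 and 186 CPM, so that KO lay above WT in both clusters and both preparations. Without cluster 2 the Endothelial values were 115 and 204 CPM in WT and 487 and 471 CPM in KO. Over all endothelial-like wells outside cluster 0, which in WT preparation 1 were mostly cluster 2, the values were 153 and 73.4 CPM in WT and 144 and 179 CPM in KO and overlapped. The part of cluster membership and plate in the difference was not tested.

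**Figure D4:**
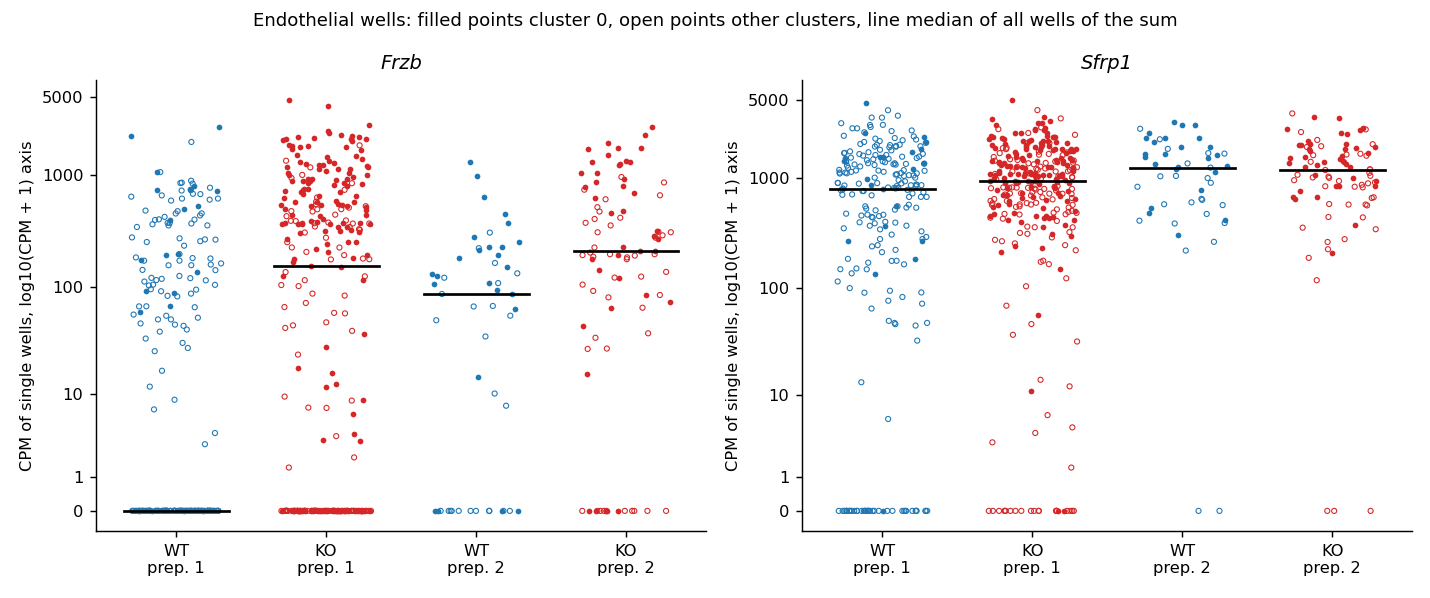
CPM of single Endothelial wells for Frzb and Sfrp1 on a log10(CPM + 1) axis, by genotype and preparation, with filled points for cluster 0, open points for other clusters and a line at the median of each sum. The Frzb medians are 0 and 86.3 CPM in WT and 153 and 210.0 CPM in KO, while the Sfrp1 medians of the 4 sums lie between 788 and 1216 CPM.

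For Sfrp1 the KO over WT ratio was 1.15 in preparation 1 and 0.956 in preparation 2, and the edgeR estimate was 0.07 ± 0.28 (SE) on the log2 scale. The other frizzled-related genes had estimates within their standard errors, -0.15 ± 0.82 for Sfrp2 and 0.11 ± 0.71 for Sfrp4. Sfrp2 was decided by which WT sum was kept. Its WT sums differed 11.7-fold between preparations, and the estimate was 2.55 without WT preparation 2 (adjusted p = 3.52e-09 by edgeR) and -1.05 without WT preparation 1 (adjusted p = 0.0235 by edgeR), a fit in which the lone WT sum is assumed to vary like the KO sums. One well gave 55.5% of the Sfrp2 counts in the WT sum of preparation 1 and 1 gave 40.9% in that of preparation 2.

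Neither Dickkopf gene had a uniform direction. Dkk2 was 0.354-fold in KO relative to WT in preparation 1 and 2.11-fold in preparation 2, with an estimate of -0.51 ± 0.63 (SE) on the log2 scale. Dkk3 was at 2.10-fold and 0.877-fold, with an estimate of 0.52 ± 0.40 (SE). The smooth muscle-like wells in the Endothelial gate, which are rich in Dkk3, were 5 of 235 and 1 of 50 in WT and 6 of 302 and 2 of 89 in KO. Without such wells the Dkk3 estimate was 0.24.

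Estimates for the receptors and co-receptors were small against their errors. They were 0.12 ± 0.39 (SE) for Fzd4, 0.11 ± 0.31 for Fzd6, -0.07 ± 0.34 for Lrp5 and 0.11 ± 0.30 for Lrp6 on the log2 scale, all with an adjusted p of 1.00 by edgeR. With 2 sums per genotype these errors leave room for changes of either sign. The median log2 change over the 10 members was 0.11, beside 0.00 over all genes tested.

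**Figure D5:**
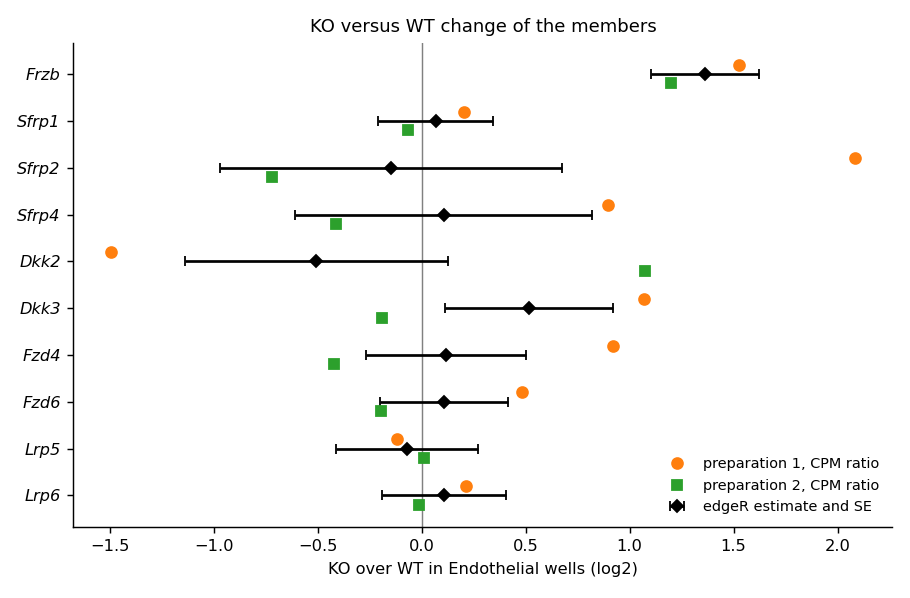
KO over WT in Endothelial wells on the log2 scale for each member, with the edgeR estimate and its SE (diamonds) and the CPM ratio of each preparation (circles and squares). Frzb lies near 1.36 with both preparations to the right of 0, and each of the other 9 members has 1 preparation on either side.

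In DoubleNegative cells, which held no EYFP count, none of the 10 members was called between KO and WT in the edgeR fit of all 8 sums, and 0% of 12729 genes were. Without adjustment 1130 genes had a p under 0.05, and DESeq2 called 200. The difference of the KO versus WT change between gates likewise called no member and 0% of genes, with 657 genes at an unadjusted p under 0.05 and 53 called by DESeq2. The member with the largest estimate in DoubleNegative cells was Fzd6, at -3.35 ± 1.18 (SE) on the log2 scale with an adjusted p of 0.523 by edgeR, from 23.3 CPM on average in WT and 3.94 CPM in KO. Those Fzd6 sums rested on 3 to 114 counts, and 1 well gave 81.6% of the 114 counts in the WT sum of preparation 1. Members were called in these comparisons under some alternatives. Without a filter on low counts Fzd6 and Sfrp1 were called between KO and WT in DoubleNegative cells and Fzd6 for the difference between gates, and without WT preparation 1 Sfrp4 was called in DoubleNegative cells.

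The wider pathway gave the setting of the members. Of 94 pathway genes, listed with the results of these data known, 64 were tested between gates. At an adjusted p of 0.05 by edgeR, 5 were higher and 13 lower in Endothelial cells, beside 9.79% of all genes higher and 9.25% lower. The choice of the pathway and target genes was not independent of the data. Their counts and p-values between gates are therefore a description and not a test of the pathway. Ligands were scarce in the Endothelial gate: of 24 ligand genes 8 were tested, 3 were lower and none higher. Wnt5a, a ligand of beta-catenin-independent signalling, had 1 count in all Endothelial wells and 1002 in DoubleNegative wells, where the sums were 112 and 6.07 CPM in WT and 25.0 and 19.4 CPM in KO (adjusted p = 0.00100 by edgeR). Wnt16 was at 0.403 CPM in Endothelial and 34.6 CPM in DoubleNegative sums on average (adjusted p = 0.000506 by edgeR), and Ndp, which encodes norrin, the ligand of Fzd4, at 0.119 and 28.9 CPM (adjusted p = 0.00777 by edgeR).

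Of 18 receptor genes 16 were tested, and 3 were higher and 5 lower in Endothelial cells. Fzd2 was at 1.06 CPM in Endothelial and 41.5 CPM in DoubleNegative sums on average, and Lgr6, a receptor for R-spondins, at 1.86 and 108 CPM (adjusted p = 0.000382 and 0.00132 by edgeR). Among the 15 antagonist genes listed beside the members 6 were tested, and 2 were lower and none higher, with Apcdd1 at 0.044 and 3.47 CPM on average (adjusted p = 0.0243 by edgeR). Secretion genes, 2 of 2 tested, did not pass.

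Of 21 cytoplasmic genes 20 were tested, 1 higher and 2 lower, and of 14 nuclear genes 12 were tested, 1 higher and 1 lower. Celsr1, a planar cell polarity cadherin, was at 24.04 CPM on average in Endothelial sums, 13.7-fold above the floor of 3 counts. It had no DoubleNegative count (adjusted p = 0.00183 by edgeR). Pygo1, a nuclear partner of beta-catenin, was at 0.095 and 5.20 CPM (adjusted p = 0.0151 by edgeR). Nkd1, an intracellular inhibitor and a Wnt target, was at 2.75 and 77.3 CPM (adjusted p = 0.00133 by edgeR).

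Of 14 target genes 6 were tested between gates, 2 higher and 2 lower. Pathway and target genes together, each counted once, gave 7 higher and 13 lower of 67 tested. With the cell pool as a block 5 were higher and 12 lower of 59 tested. Sox17, an arterial endothelial transcription factor, was at 160 CPM on average in Endothelial sums and at 0 in DoubleNegative sums, at least 90.8-fold higher (adjusted p = 0.000140 by edgeR). Several target genes were at or near 0 in both gates: Axin2 had 2 counts in Endothelial and 8 in DoubleNegative wells, Lef1 62 and 0, and Notum and Sp5 none. Others were well detected. Ccnd1, which encodes cyclin D1, was at 105 CPM on average in Endothelial and 17.2 CPM in DoubleNegative sums (adjusted p = 0.00473 by edgeR). Myc was at 20.9 and 38.9 CPM and Znrf3 at 13.1 and 36.0 CPM, and neither passed. Ccnd1, Myc, Znrf3, Axin2, Lef1, Notum and Sp5 were chosen after their values were seen. Between KO and WT in Endothelial cells 59 pathway genes and 7 target genes were tested and none was called, with median log2 changes of 0.05 and 0.34 beside 0.00 over all genes.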

How the data were processed

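Single aortic cells were profiled with Smart-seq2, which carries no molecular identifiers. Each count therefore stands for a read. Per the submitters' processing notes and the study's methods, the authors mapped reads with STAR 2.7.7a to GRCm38, to which EYFP and the spike-ins had been added, dropped duplicate reads with Picard 2.22.0 and counted genes with HTSeq 0.9.1. The annotation release is not given in the sources used here. The deposited table holds whole-number counts per gene and well, not normalized. Its 5 summary lines (46.9% of counts) and 92 spike-in lines (1.25%) were left out.

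Wells with at least 20000 counts and 500 genes were kept and summed per preparation, genotype and gate. CPM relates a gene's count to all gene counts of its sum. Sums were tested with edgeR 4.0.16 (R 4.3.3; TMM, filterByExpr, quasi-likelihood test, two-sided, Benjamini-Hochberg adjusted over all genes tested, threshold 0.05) and, as an alternative, DESeq2 1.42.0. KO and WT in Endothelial cells were compared over 4 sums, and the gates, the DoubleNegative cells and the difference between gates in 1 fit of 8 sums. That fit does not pair the gates of a cell pool (genotype by preparation), which was done only in the alternative with the pool as a block. The number of the preparation is the sort number in the labels. It is shared by the genotypes, but the labels do not say that equal numbers were handled together. The preparation block treats them as 1 batch. Deviations of WT and KO sums of one preparation from their group means correlated at 0.1151 over 12702 genes. Clusters came from Seurat 5.3.0 (30 dimensions, resolution 0.5), named only where at least 3 markers of a type were detected and higher. No doublet caller was run. The fits were tested on simulated data. All 10 members were named, of the other pathway genes up to 10 per comparison with the largest change past the threshold, and 8 and 4 genes by correlation with Frzb. The members and gene lists were chosen with earlier results of these data known. Fixed alternatives were other normalization, filters, tool, wells, blocks and samples, and within-cluster and within-preparation values were added after seeing the data.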

Additional observations from a re-analysis of the deposited data

How the results depend on the processing

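No gene was called between KO and WT Endothelial sums. This count became 1 with preparation as a replicate block, 1 with RLE factors, 1 in endothelial-like wells alone, 8 in thinned wells, 55 with DESeq2 and 104 without a filter, and 5 to 311 when 1 preparation of a genotype was left out, highest without WT preparation 1. In wells of at least 100000 counts and in the fit of 8 sums it stayed 0. For DoubleNegative cells the count of 0 became 218 without a filter and 200 with DESeq2, and 0 to 34 when 1 preparation of a genotype was left out. For the difference between gates it became 163 without a filter, 53 with DESeq2 and 0 to 21 when 1 preparation of a genotype was left out. Between gates 2423 genes were called, and 1004 to 1885 when 1 preparation of a genotype was left out. The causes were not tested.

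Small KO versus WT log2 changes turned sign. With the block Sfrp2 was at 0.69. In wells of at least 100000 counts Sfrp1 was at -0.013, Sfrp4 at -0.10 and Lrp6 at -0.030. In thinned wells Fzd4 was at -0.022 and Fzd6 at -0.13, and in endothelial-like wells Sfrp4 was at -0.18. Leaving out 1 preparation of a genotype gave -0.15 to 0.31 for Sfrp1, -1.05 to 2.55 for Sfrp2, -0.43 to 0.92 for Sfrp4, -1.18 to 0.83 for Dkk2, -0.40 to 0.90 for Fzd4, -0.23 to 0.53 for Fzd6 and -0.35 to 0.29 for Lrp5. Between gates Sfrp4 ran from -6.17 to 2.86. The preparation block changed no member's call between KO and WT, and between gates it lost that of Sfrp4. At a clustering resolution of 0.8 the cluster matched to cluster 0 had Sfrp2 at 13.2 CPM, against 162 CPM. Each genotype had 2 preparations, and DoubleNegative sums held 12 to 42 wells.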
